A study of Mus musculus with 6 samples.

Results

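Changes at the middle stage of dorsal spinal cord development were sought in GFP+ cells of *Wnt1-cre*;*Rosa26mTmG* mouse embryos. The genes described here are those whose signal at E11.5 stood above or below the signal at both E10.5 and E12.5. Each of the 3 stages had 2 arrays (Affymetrix mouse exon arrays, 6 in all), and the values are log2 signals, as deposited, for 23332 transcript clusters (the pooled probes of a locus). A total of 14996 clusters name exactly 1 gene. For each of them the contrast was the E11.5 mean minus the average of the E10.5 mean and the E12.5 mean, so that 1 unit is a doubling. A gene was said to have a peak when both E11.5 arrays lay above the arrays of the same replicate number at both other stages, and a dip when both lay below them. By that rule 844 of the 14996 clusters had a peak and 1266 had a dip.

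All 3 stages carried the same alleles and no treatment. The Cre is driven by *Wnt1* regulatory sequence and turns on membrane GFP in place of tdTomato, so GFP marks dorsal neural tube cells with a history of Cre, the neural crest and the descendants of both. The labels call the material dorsal spinal cord commissural neurons, yet the sorted cells held progenitors as well: 31 of 33 mitosis genes lay above the detection limit, as did 22 of 30 neural progenitor genes and 11 of 14 markers of the dorsal neural tube lineage. By the same mean over the 6 arrays, 0 of 9 muscle markers and 0 of 13 endothelium markers lay above the limit, as did 2 of 6 for red blood cells, 2 of 13 for microglia and 2 of 17 for mesenchyme. So did 5 of 9 for neural crest and Schwann precursors, 4 of 9 for roof plate and 5 of 13 for glial precursors. For motor and ventral neurons it was 4 of 19, for dorsal root ganglion neurons 2 of 10 and for floor plate 1 of 7. Over all clusters naming 1 gene 44.8% lay above the limit. The muscle marker *Mstn* was above the limit on both E10.5 arrays (6.07 and 7.75). On the replicate 1 array alone, however, the percentile that sets the limit (described below) was 6.59. Only the replicate 2 value was thus above the background of its own array. Nothing in the labels or methods tells if both arrays of a stage had their own litter or pool, so any p-value speaks only of the spread among these arrays, and that spread may be technical.

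Between these stages the dorsal spinal cord makes its neurons in an ordered way. Cycling progenitors next to the central canal leave the cell cycle and settle as classes named dI1 to dI6, of which the dI1 neurons arise nearest the roof plate and send commissural axons towards the floor plate. A second and later wave supplies the superficial dorsal horn. A gene used for a short time by one of these steps can appear in a stage series as a peak, and one that is paused can appear as a dip. In bulk samples a smaller share of cells of a type and less RNA per cell cannot be told apart.

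The arrays differed in ways that touch the contrast. On average the E10.5 replicate 1 array correlated at 0.890 with the others (0.948 to 0.955 for the rest), and it had the narrowest range of signals (SD 1.66, against 1.78 to 1.96). The detection limit, a mean signal of 5.85, was the 95th percentile over 841 clusters of olfactory, vomeronasal, trace amine and taste receptor genes, which are not known to be used in the spinal cord. That percentile was 6.18 on the E11.5 replicate 1 array, against 6.59 and 6.55 on the replicate 1 arrays of E10.5 and E12.5, while the replicate 2 arrays of all stages lay between 5.38 and 5.40. Signal near background was therefore lower at E11.5 than at the flanking stages in replicate 1 alone.

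No transcript cluster passed the test of the contrast. With limma, 0 of 23332 clusters (0.0%) had an adjusted p under 0.05, and the smallest adjusted p was 0.99985. At an unadjusted p under 0.05 there were 175 clusters (0.75%), of which 106 were higher and 69 lower at E11.5. Among the clusters naming 1 gene there were 21 (0.14%), 8 higher (0.0533%) and 13 lower (0.0867%). For a single gene, the smallest p that an exact permutation of 2 arrays among 6 can give, over 15 arrangements, is 0.0667. The peaks and dips below are therefore described by their values, and none is called changed.

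Peaks made up 5.63% of the 14996 clusters and dips 8.44%. The balance turned with signal. Among the 6722 clusters above the detection limit there were 492 peaks (7.32%) and 322 dips (4.79%), whereas the receptor clusters, which mark background, held 51 peaks (6.06%) and 129 dips (15.3%). Dips were thus commonest where the signal was weakest, and the part that the lower background of the E11.5 replicate 1 array plays in them was not tested. Both E11.5 arrays lay above all 4 other arrays in 239 clusters (1.59%) and below all 4 in 188 (1.25%). Requiring every one of the 4 differences to reach 0.5 left 5 peaks and 9 dips. Leaving out any 1 array relaxes the rule and gave between 1361 and 4691 peaks and between 1761 and 5098 dips.

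Most peaks and dips were small. The median contrast was 0.24 for peaks and -0.24 for dips, 76 peaks and 103 dips reached 0.5 in size, and 2 peaks and 6 dips reached 1. In 358 of the peaks and 468 of the dips the flanking stages differed from each other by less than 50% of the contrast, so that the signal came back close to where it had been. The rule has a sharp edge: in *Spc25* and *Ttc41* the smallest of the 4 differences was 0.000235 and 0.000315, and just outside it *Srsf4* and *Gdpd3* were level with a flanking array. The E10.5 replicate 1 array was the lowest of the 6 in 43.4% of the peaks, against 23.0% of all clusters naming 1 gene. It was the highest of the 6 in 68.6% of the dips, against 46.6%. By the rule neither E11.5 array can be the lowest in a peak or the highest in a dip, so part of each excess is built in. Among all clusters above the detection limit that array was the lowest in 46.5%.

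Whether a pattern seen in one replicate number was seen again in the other could be asked without reusing arrays. Of 3341 clusters that peaked in the replicate 1 arrays, 25.3% also peaked in the replicate 2 arrays, against 31.3% of all clusters. Of 4691 that peaked in replicate 2, 18.0% peaked in replicate 1, against 22.3% of all. For dips the shares were 24.8% against 24.6%, and 34.3% against 34.0%. Across genes, the contrast in replicate 1 and the contrast in replicate 2 had a Pearson correlation of -0.02 and a Spearman correlation of -0.04 (14996 clusters, which share arrays and are not independent replicates). For peaks the share that recurred was below the share over all clusters and for dips it was above it by less than 1 percentage point, and the single genes below should be read against that.

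**Figure D1:**
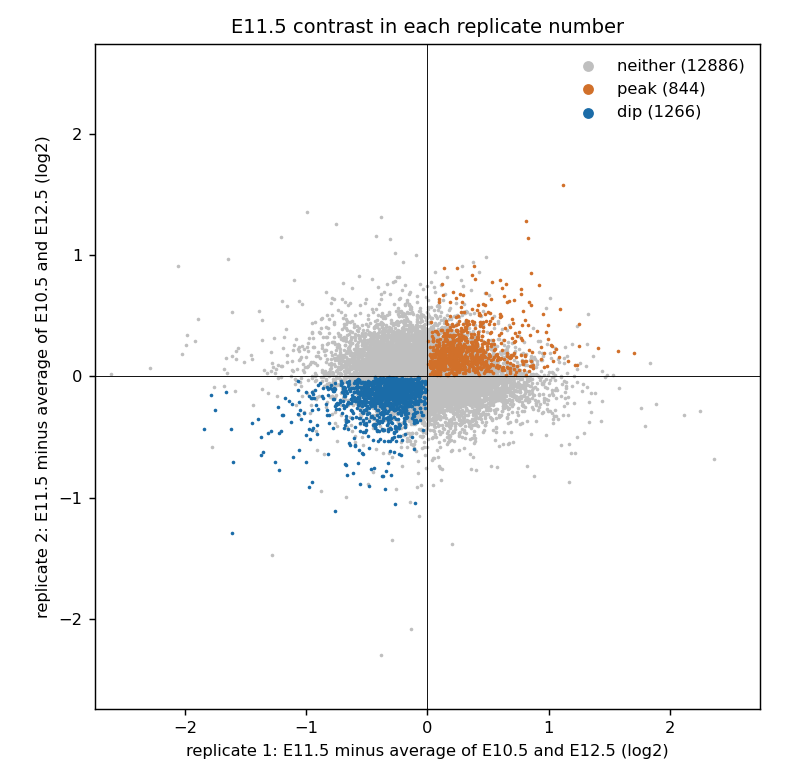
The contrast of E11.5 with the flanking stages (log2) in the replicate 1 arrays (horizontal) and in the replicate 2 arrays (vertical), 1 point for each of 14996 clusters naming 1 gene; orange points are the 844 peaks, blue points the 1266 dips and grey points neither. The cloud has no slope (Pearson correlation -0.02) and is wider in replicate 1 (SD 0.36) than in replicate 2 (SD 0.20).

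Genes were named as peaks by the smallest of their 4 differences, the 15 largest among genes whose E11.5 mean lay above the detection limit. The first of them was *H1f2* (cluster 6805381), which encodes the linker histone H1.2, a protein that binds DNA between nucleosomes. Its log2 signals were 5.57 and 5.60 at E10.5, then 6.40 and 6.24 at E11.5, then 5.39 and 5.38 at E12.5. Both E11.5 arrays lay above all 4 others, the replicates of each stage were close together, and the smallest of the 4 differences, 0.64, was the largest among the named peaks. The contrast was 0.83 ± 0.25 (SE), and it stayed between 0.76 and 0.91 without any 1 array. All 4 flanking arrays and the mean over the 6 arrays, 5.77, are under the detection limit, so the contrast is set against signal near background, and histone genes are near-identical copies whose probes may read each other.

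Most histone cluster genes had neither pattern: of 16 measured, *H1f2* among them, 3 had a peak, 1 had a dip, and 3 lay above the detection limit. Over all clusters naming 1 gene 5.63% had a peak, 8.44% had a dip and 44.8% lay above the limit. *H1f1*, another linker histone, also lay above all 4 other arrays, with signals of 4.16 and 4.01 at E10.5, then 4.31 and 4.45 at E11.5, then 3.92 and 3.54 at E12.5, all under the detection limit. *H2bu2*, an H2B gene, had the opposite pattern, with 6.83 and 6.38 at E10.5, then 4.71 and 5.18 at E11.5, then 5.81 and 5.39 at E12.5. Both of its E11.5 arrays lay below all others and its contrast was -1.16 ± 0.30, but its mean signal of 5.72 was under the limit too. The median contrast of the 16 genes was 0.08, against -0.02 over all clusters naming 1 gene.

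Among the named peaks, *Pclaf* and *Ccnd1* have known roles in the cell cycle. *Pclaf*, whose product binds the replication clamp PCNA, had 7.07 and 8.63 at E10.5, then 8.50 and 9.09 at E11.5, then 7.68 and 6.40 at E12.5. Its contrast of 1.35 ± 0.54, 2.55-fold, was the largest of any peak, yet the 2 arrays within each flanking stage differed by more than 1 unit, and the lower E11.5 array was below the higher E10.5 array. *Ccnd1*, cyclin D1, which drives the passage into S phase, had 6.97 and 8.13, then 8.24 and 8.91, then 7.96 and 8.26, a contrast of 0.74 ± 0.40. Its E12.5 mean stayed 0.56 above its E10.5 mean, and its lower E11.5 array lay just under the higher E12.5 array.

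*Cdca4* and *Sertad3*, both of which encode co-regulators of transcription with a SERTA domain, were among the 15 named peaks. *Cdca4* had 6.62 and 6.99 at E10.5, then 7.11 and 7.50 at E11.5, then 6.40 and 7.01 at E12.5. *Sertad3* had 4.85 and 5.31 at E10.5, then 6.21 and 5.64 at E11.5, then 5.57 and 5.14 at E12.5. In both genes the 2 E11.5 arrays lay above all 4 others, with contrasts of 0.55 ± 0.31 and 0.71 ± 0.31. All 4 flanking arrays of *Sertad3* and 1 of its E11.5 arrays were under the detection limit, so its contrast is set against signal near background. The family did not move together: *Sertad1* and *Sertad2*, chosen after their values were seen, had neither pattern, and *Sertad4* had a dip of -0.37 ± 0.26. The mean signals of *Sertad1* and *Sertad4*, 4.73 and 5.23, were under the detection limit, and that of *Sertad2* was 7.31.

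**Figure D2:**
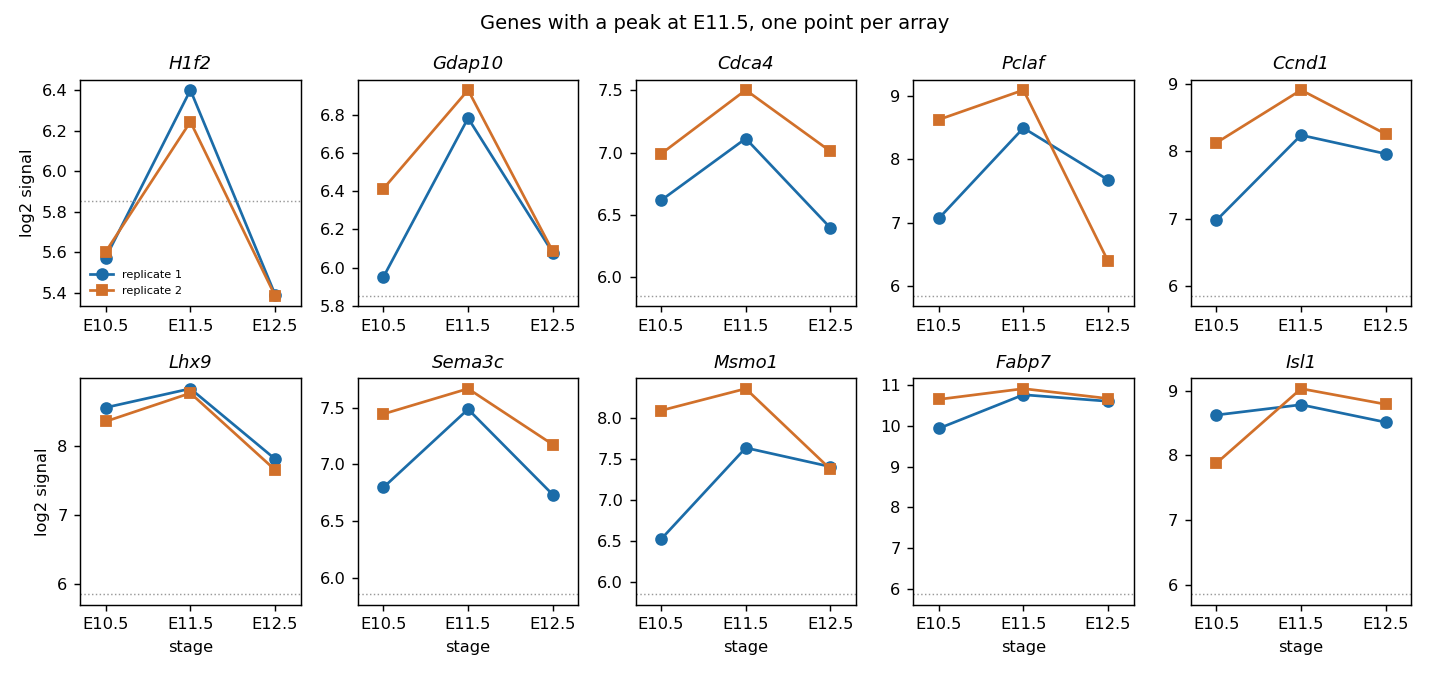
Log2 signal (vertical, a separate scale in each panel) over the 3 stages for 10 genes with a peak, with 1 point for each array, lines joining the arrays of the same replicate number and a dotted line at the detection limit of 5.85. In *H1f2*, *Gdap10* and *Lhx9* both E11.5 points stand above all others, while in *Pclaf*, *Ccnd1* and *Msmo1* the replicates are apart and the E10.5 replicate 1 point is low.

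Of the remaining named peaks, *Gdap10* had 5.95 and 6.41 at E10.5, then 6.78 and 6.93 at E11.5, then 6.08 and 6.09 at E12.5, a contrast of 0.72 ± 0.27 with no overlap of the stages. *C1qtnf3*, a secreted protein with the C1q domain that *Cbln1* also encodes, had 5.93 and 6.61, then 6.66 and 7.07, then 5.71 and 6.29, again with no overlap. *Htra2* (a protease of the mitochondrial intermembrane space), *Rnf150* (a RING finger protein) and *Elof1* (a transcription elongation factor) also had both E11.5 arrays above all others, with contrasts of 0.46, 0.48 and 0.54. In *Pdlim5*, *Cep128*, *Asah1*, *Mrps18c* and *Phxr4* the stages overlapped, and the contrasts were 0.36 to 0.74. That of *Asah1*, the acid ceramidase, was -0.01 without E11.5 replicate 2.

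Some genes of the dI1 neurons had a peak. *Lhx9* and *Lhx2* encode LIM homeodomain factors of dI1 neurons, whose axons need them to cross the midline. *Lhx9* (cluster 6762625) had 8.56 and 8.36 at E10.5, then 8.84 and 8.77 at E11.5, then 7.82 and 7.66 at E12.5. *Lhx2* had 7.81 and 7.61 at E10.5, then 7.91 and 7.86 at E11.5, then 7.13 and 7.09 at E12.5. Both genes were highest on both E11.5 arrays and lowest at E12.5, and the difference came mostly from the second interval. *Lhx9* was 0.34 higher at E11.5 than at E10.5 and 1.07 lower at E12.5 than at E11.5, and the steps of *Lhx2* were 0.17 and -0.77.

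The *Lhx9* contrast was 0.70 ± 0.25 and lay between 0.65 and 0.75 without any 1 array. The *Lhx2* contrast was 0.47. Of 7 dI1 genes measured, all above the detection limit, 3 had a peak (42.9%, against 7.32% of the clusters above the limit), 0 had a dip, and 6 had a contrast above 0 (61.7% of the clusters above the limit). The third peak, *Robo3*, a receptor that lets commissural axons reach the midline, rests on a smallest difference of 0.01, with 7.66 and 7.78 at E10.5, then 8.27 and 7.96 at E11.5, then 8.17 and 7.95 at E12.5. *Barhl1*, *Barhl2*, *Evx2* and *Pou4f1* had neither pattern, with contrasts of 0.17, 0.19, 0.08 and 0.00. The median of the 7 genes was 0.19 (0.04 in replicate 1 and 0.32 in replicate 2), against 0.05 over the clusters above the detection limit, and without any 1 array it lay between 0.07 (E10.5 replicate 2 left out) and 0.30 (E10.5 replicate 1 left out).

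Among the transcription factors of the dI2 to dI6 classes, 1 of 22 had a peak and 2 had a dip (5.63% and 8.44% of all clusters naming 1 gene). The median contrast was -0.16 (-0.28 in replicate 1 and -0.02 in replicate 2). Without any 1 array it lay between -0.29 (E10.5 replicate 2 left out) and 0.03 (E10.5 replicate 1 left out). The peak was *Isl1*, a LIM homeodomain factor of dI3 neurons and of motor neurons, with 8.62 and 7.88 at E10.5, then 8.78 and 9.03 at E11.5, then 8.51 and 8.79 at E12.5. Its lower E11.5 array was just under the higher E12.5 array, and the contrast was 0.46 ± 0.31. The dips were *Lmx1b* and *Prrxl1*, factors of dorsal horn excitatory neurons, at -0.35 and -0.24, both with a mean signal under the detection limit. *Pax2*, a factor of inhibitory neurons, had the smallest p in this list and no dip. It had 7.17 and 6.19 at E10.5, then 6.46 and 6.92 at E11.5, then 7.90 and 8.12 at E12.5, so its contrast of -0.66 ± 0.35 came from a single step of 1.32 in the second interval.

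Genes for making cholesterol had the largest share of peaks of any list with at least 10 genes measured. In this pathway acetyl-CoA is built into mevalonate, squalene and sterols, and the SREBP factors set the transcription of its enzymes when sterols are scarce. Of 18 genes measured, 8 had a peak (44.4%), against 5.63% of all clusters naming 1 gene and 7.32% of those above the detection limit, and 0 had a dip. The 8 were *Hmgcs1* at the head of the pathway, *Sqle* and *Lss*, which make squalene epoxide and close it into lanosterol, *Cyp51*, *Msmo1*, *Nsdhl* and *Hsd17b7*, which trim lanosterol, and *Insig1*, which retains the SREBP complex in the endoplasmic reticulum. Contrasts were above 0 in both replicate numbers for 11 of the 18, or 61.1%, against 29.8% of the clusters above the detection limit. A peak is above 0 in both by definition, so the 8 peaks are among these 11 and the count is not a separate result.

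*Msmo1*, the sterol C4-methyl oxidase, had the smallest p in the list, with 6.52 and 8.09 at E10.5, then 7.63 and 8.35 at E11.5, then 7.40 and 7.37 at E12.5. *Hmgcs1*, cytosolic HMG-CoA synthase, had 7.87 and 9.65 at E10.5, then 9.40 and 9.78 at E11.5, then 9.33 and 9.65 at E12.5. *Insig1* had 8.33 and 8.74 at E10.5, then 8.91 and 8.81 at E11.5, then 8.70 and 8.66 at E12.5. Of the 8 peaks only *Insig1* had both E11.5 arrays above all 4 others, and by a smallest difference of 0.07 to the arrays of its own replicate number. In *Hmgcs1* the replicate 2 arrays differed little between stages (9.65, 9.78 and 9.65).

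In all 8 peaks the E10.5 replicate 1 array was the lowest of the 6. The median contrast of the 18 genes was 0.27 (0.24 in replicate 1 and 0.15 in replicate 2), and 0.09 when that array was left out, where the median over the clusters above the detection limit was -0.02. *Nsdhl* shows the point: its signals were 5.54 and 8.66 at E10.5, then 8.09 and 8.84 at E11.5, then 7.82 and 8.57 at E12.5, and its contrast was 1.41 in replicate 1 and 0.23 in replicate 2. The part of that array in the result was not tested beyond leaving it out. The genes without a peak included *Fdft1*, *Dhcr7*, *Pmvk* and *Mvk*, whose contrasts were -0.31, -0.16, -0.10 and -0.07, and the regulator *Srebf2*, whose contrast was 0.73 in replicate 1 and 0.07 in replicate 2.

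**Figure D3:**
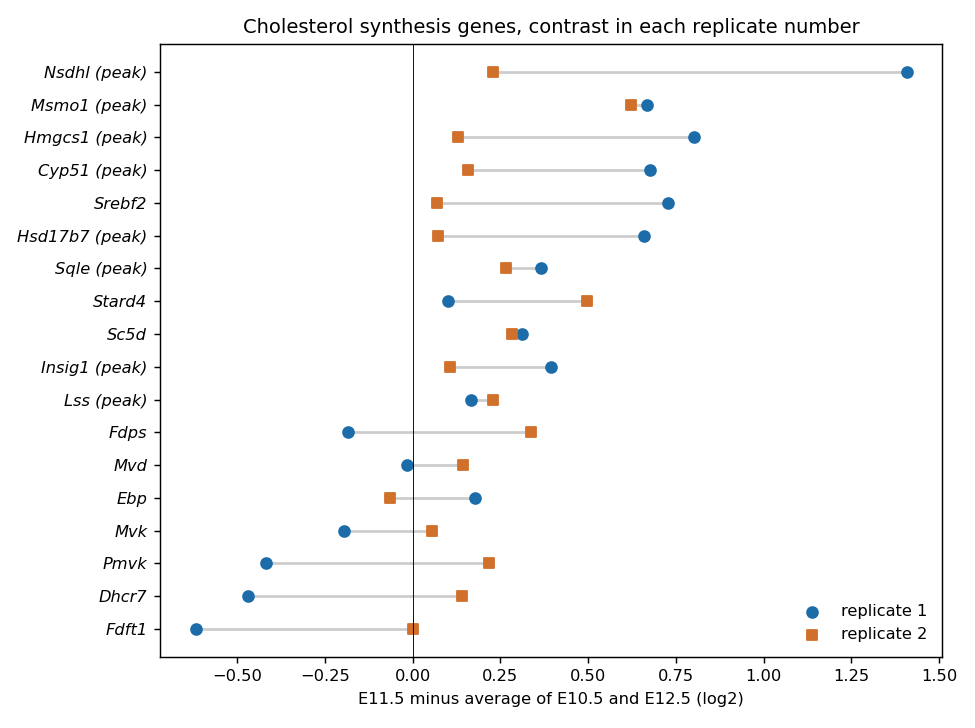
The contrast of E11.5 with the flanking stages (log2, horizontal) for each of 18 cholesterol synthesis genes in the replicate 1 arrays (blue circles) and the replicate 2 arrays (orange squares), ordered by the contrast of stage means. All 8 genes with a peak are above 0 in both replicates, as the rule requires, *Nsdhl* by 1.41 and 0.23. *Fdft1*, *Dhcr7*, *Pmvk* and *Mvk* are below 0 in replicate 1.

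The promoters of these genes are shown because members of the list had the same pattern. The sequences are the 250 bases before the annotated start in RefSeq (GRCm38.p6), 5′ to 3′ on the strand of the gene. Capitals mark CCAAT on either strand (read as ATTGG on the opposite one) and, in *Hmgcs1*, the sterol element TCACNCCAC, or, in *Insig1*, the E-box CACGTG. *H1f2* is added as the leading peak from outside the pathway.
*Hmgcs1*, chr13:119690101-119690350, plus strand: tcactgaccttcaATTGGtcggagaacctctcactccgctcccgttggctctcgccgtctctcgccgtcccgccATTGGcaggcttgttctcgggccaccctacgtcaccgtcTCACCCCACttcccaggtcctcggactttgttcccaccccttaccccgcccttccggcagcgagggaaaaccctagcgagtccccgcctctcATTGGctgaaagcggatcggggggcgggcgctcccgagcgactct
*Msmo1*, chr8:64733579-64733828, minus strand: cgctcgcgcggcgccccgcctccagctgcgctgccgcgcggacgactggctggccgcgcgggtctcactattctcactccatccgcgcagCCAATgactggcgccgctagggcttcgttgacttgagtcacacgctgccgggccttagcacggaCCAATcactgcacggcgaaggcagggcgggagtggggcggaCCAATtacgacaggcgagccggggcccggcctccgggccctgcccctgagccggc
*Insig1*, chr5:28071162-28071411, plus strand: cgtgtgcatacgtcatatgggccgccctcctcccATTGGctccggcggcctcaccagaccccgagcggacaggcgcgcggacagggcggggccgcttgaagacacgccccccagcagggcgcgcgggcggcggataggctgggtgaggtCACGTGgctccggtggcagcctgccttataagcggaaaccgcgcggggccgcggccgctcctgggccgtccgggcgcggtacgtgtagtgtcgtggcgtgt
*H1f2*, chr13:23738557-23738806, plus strand: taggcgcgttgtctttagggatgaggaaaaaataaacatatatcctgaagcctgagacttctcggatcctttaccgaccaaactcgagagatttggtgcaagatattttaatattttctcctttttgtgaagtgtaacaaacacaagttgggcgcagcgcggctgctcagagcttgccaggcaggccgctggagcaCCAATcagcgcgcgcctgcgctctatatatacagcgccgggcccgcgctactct

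*Hmgcs1* and *Msmo1* each held 3 CCAAT motifs, and *Insig1* and *H1f2* held 1 each. Of the 18 cholesterol genes 14 matched a promoter entry, and all 14 held CCAAT on either strand, against 37.5% of 27025 genes with an entry. The 14 were 7 genes with a peak and 7 without one. All 13 histone cluster genes with an entry held it too. TCACNCCAC was found in 1 of the 14, against 1.22% of all genes, and CACGTG in 4 of 14 (28.6%, against 6.86%). A match is a description of the letters in this window and not a site of binding.

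Genes of S phase and of mitosis had positive contrasts more than peaks. Of 31 S phase genes, 26 had a contrast above 0 and 3 had a peak, and of 33 mitosis genes, 27 and 4, with 0 dips in either list. Peaks were 9.68% of the S phase genes and 12.1% of the mitosis genes. Over all clusters naming 1 gene 5.63% had a peak and 8.44% a dip, and over those above the detection limit 7.32% and 4.79%. The median contrasts were 0.27 and 0.21. Both lists were level over the first interval (median steps 0.03 and -0.04) and lower over the second (-0.40 and -0.44), and E12.5 was the lowest stage for 25 of 31 and 32 of 33 genes. Over all clusters naming 1 gene E12.5 was the lowest stage for 40.6% and the contrast was above 0 for 44.4%, and over those above the detection limit for 33.7% and 61.7%. The lower level at E12.5 was mainly in the replicate 2 arrays. In replicate 1 the median signal of the S phase genes was 6.44 at E11.5 and then 6.37 at E12.5, and in replicate 2 it was 7.0 and then 6.23. That of the mitosis genes was 6.76 and then 6.75 in replicate 1, and 7.92 and then 7.08 in replicate 2.

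*Uhrf1*, which brings DNA methylation to newly copied DNA, had 7.33 and 8.77 at E10.5, then 8.40 and 8.85 at E11.5, then 7.76 and 7.76 at E12.5. *Aurkb*, a kinase that corrects chromosome attachment, had 6.84 and 7.65, then 7.29 and 7.85, then 6.79 and 7.03. In both genes the E12.5 arrays were low and the E10.5 arrays were apart, so that the E10.5 and E11.5 stages overlapped. The contrasts were 0.72 ± 0.42 and 0.49 ± 0.34. With the E10.5 replicate 1 array left out the list medians were 0.06 for S phase and -0.06 for mitosis, and without E11.5 replicate 2 they were 0.07 and -0.23.

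**Figure D4:**
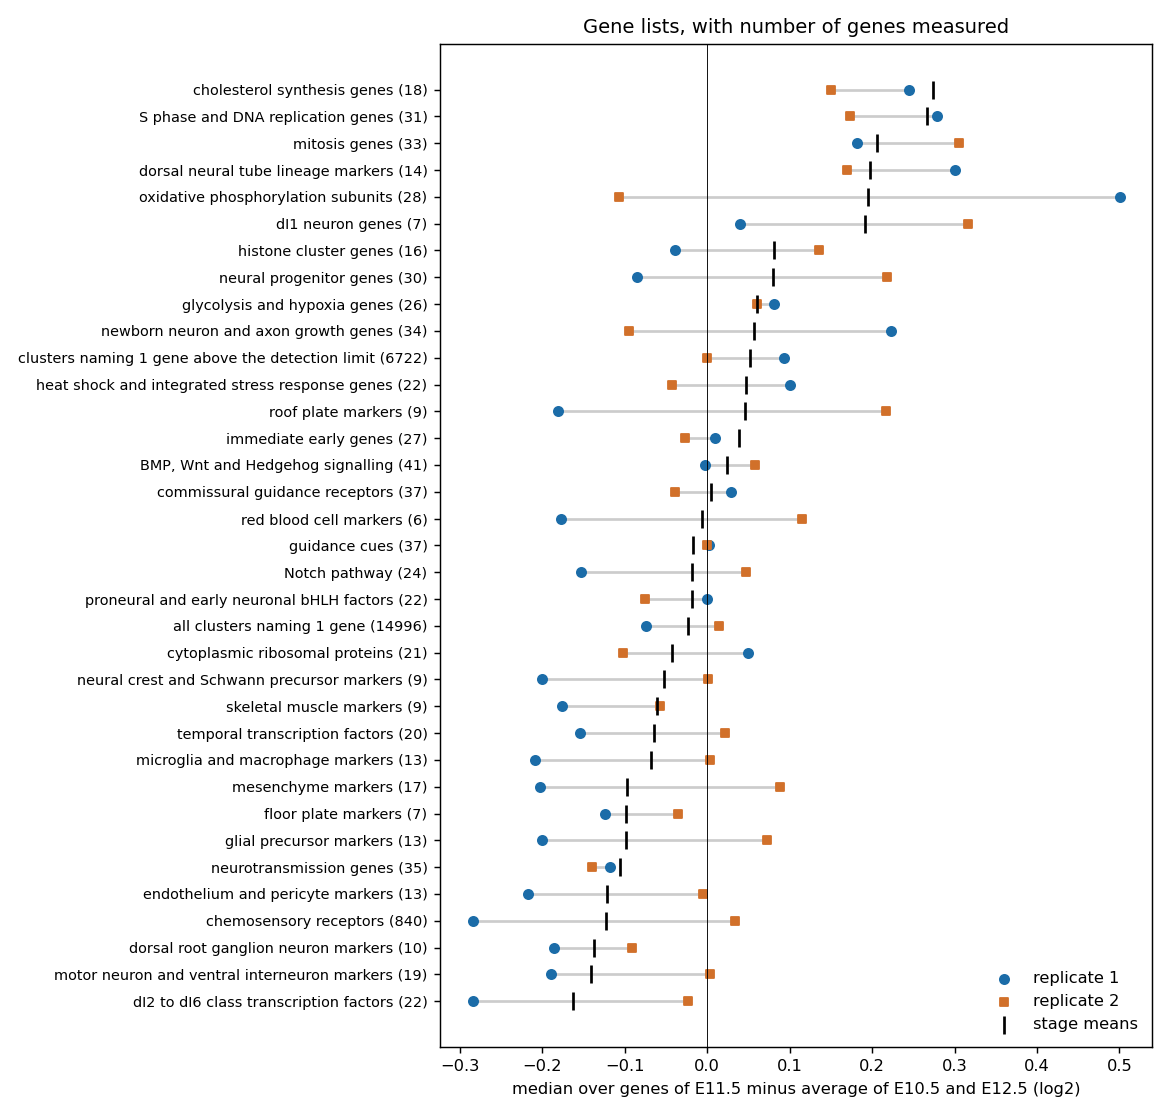
Median over the genes of each list of the contrast of E11.5 with the flanking stages (log2, horizontal), from the replicate 1 arrays (blue circles), the replicate 2 arrays (orange squares) and the stage means (black ticks), with the number of genes measured in parentheses. The 3 highest lists lie above 0 in both replicates, and oxidative phosphorylation subunits lie at 0.50 in replicate 1 and -0.11 in replicate 2.

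Among ligands and receptors of axon guidance the members differed. *Sema3c*, a secreted semaphorin, had 6.80 and 7.45 at E10.5, then 7.49 and 7.67 at E11.5, then 6.73 and 7.18 at E12.5, with both E11.5 arrays above all others and a contrast of 0.54 ± 0.31. *Nrp1*, a receptor for secreted semaphorins, had the opposite pattern, with 6.47 and 6.95 at E10.5, then 6.20 and 5.90 at E11.5, then 6.45 and 6.95 at E12.5. Both of its E11.5 arrays were below all others, and the flanking stages were nearly identical (means of 6.71 and 6.70). Its contrast was -0.66 ± 0.30, a 1.58-fold difference, made up of -0.26 in replicate 1 and -1.05 in replicate 2. The lower values lie close to the detection limit. In replicate 1 both flanking values were under the 95th percentile of the receptor clusters on their own arrays (6.59 at E10.5 and 6.55 at E12.5). That percentile was 6.18 at E11.5, and its part in the replicate 1 difference was not tested.

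*Boc* and *Cdon*, which encode related co-receptors for Sonic hedgehog, had a peak each. *Boc* had 6.25 and 7.20 at E10.5, then 7.22 and 7.73 at E11.5, then 7.13 and 7.28 at E12.5, and *Cdon* had 7.12 and 8.70, then 8.52 and 9.08, then 8.35 and 8.39. Their contrasts were alike in the replicates, 0.53 and 0.48 for *Boc* and 0.79 and 0.54 for *Cdon*, although the E10.5 replicate 1 array was again the lowest of the 6 for both. Of 37 guidance receptors 3 had a peak (*Robo3* is the third) and 1 had a dip, of 37 guidance cues 2 had a peak and 0 a dip, and the list medians were 0.00 and -0.02. The peaks were 8.11% of the receptors and 5.41% of the cues. Over all clusters naming 1 gene 5.63% had a peak and 8.44% a dip, and over those above the detection limit 7.32% and 4.79%. E12.5 was the highest stage for 25 of the 37 receptors (67.6%), against 26.5% of all clusters naming 1 gene and 36.3% of those above the detection limit.

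*Cbln1*, the gene that the study followed, had neither pattern. It had 6.23 and 6.15 at E10.5, then 6.85 and 7.0001 at E11.5, then 7.29 and 8.19 at E12.5, in steps of 0.73 and 0.81. E11.5 lay midway, and the contrast was -0.04 ± 0.32.

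The dip with the largest contrast was that of *Sst* (cluster 6844649), which encodes the neuropeptide somatostatin, a marker of a group of dorsal horn neurons. It had 10.19 and 8.70 at E10.5, then 7.56 and 7.47 at E11.5, then 8.16 and 8.82 at E12.5. Both E11.5 arrays were close together and below all others, and all 6 arrays were well above the detection limit. The contrast was -1.45 ± 0.45, a 2.73-fold difference, with -1.61 in replicate 1 and -1.29 in replicate 2, and it lay between -1.82 and -1.08 without any 1 array. The first step (-1.93) was larger than the return (0.97).

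*Npy*, another neuropeptide gene, was chosen after its values were seen and had a dip as well. It had 7.69 and 6.28 at E10.5, then 6.17 and 6.10 at E11.5, then 6.76 and 7.14 at E12.5. Both E11.5 arrays lay below all others, and the contrast was -0.84 ± 0.42. The neuropeptide genes *Tac1*, *Penk* and *Pdyn* had a dip, a peak and neither, with mean signals of 3.74, 5.06 and 5.82, all under the detection limit.

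**Figure D5:**
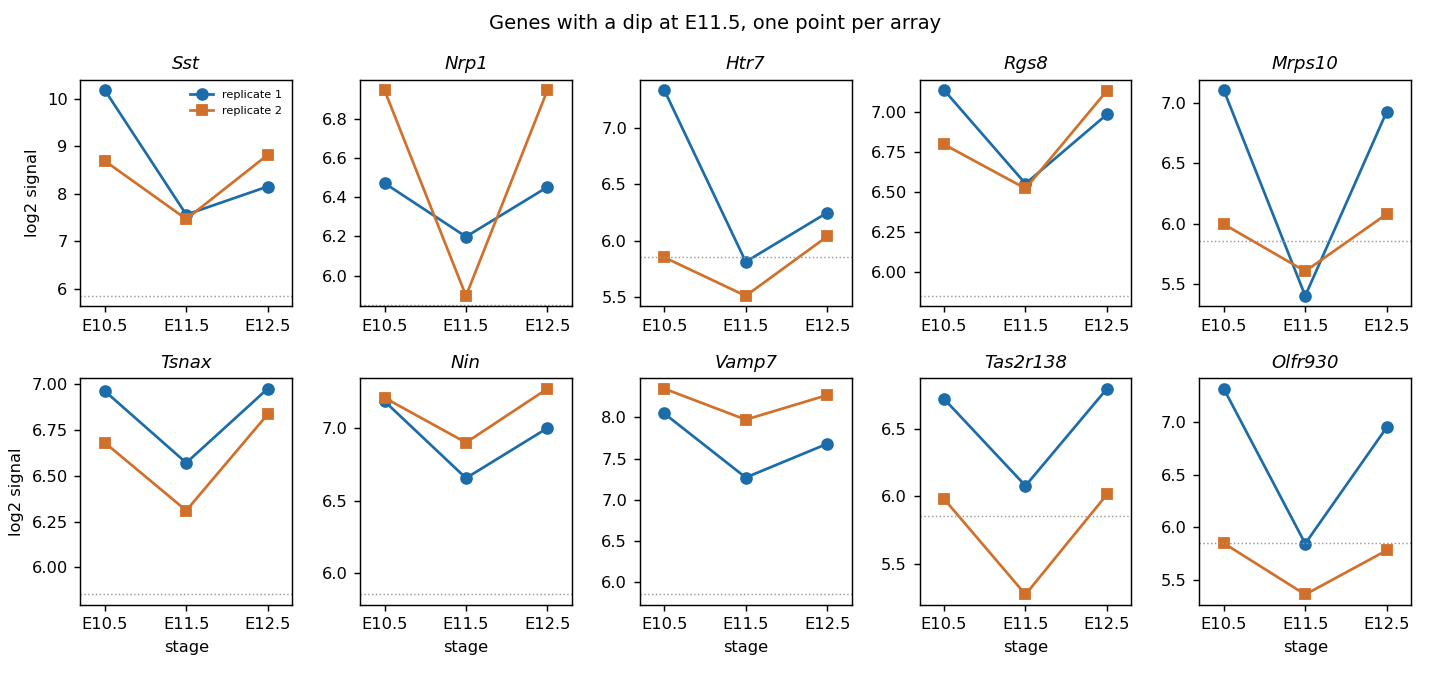
Log2 signal (vertical, a separate scale in each panel) over the 3 stages for 10 genes with a dip, with 1 point for each array, lines joining the arrays of the same replicate number and a dotted line at the detection limit of 5.85. In *Sst*, *Nrp1*, *Rgs8*, *Tsnax* and *Nin* both E11.5 points lie below all others, and in the receptor genes *Tas2r138* and *Olfr930* the dip is seen within each replicate number while the stages overlap.

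Dips were named in the same way, among genes whose lower flanking mean lay above the detection limit, and of these 15 dips 4 were chemosensory receptor genes of the kind used to set the detection limit. *Tas2r138*, a bitter taste receptor, had 6.72 and 5.98 at E10.5, then 6.08 and 5.27 at E11.5, then 6.80 and 6.01 at E12.5. The other 3 were *Vmn1r183*, *Olfr930* and *Olfr796*, with contrasts of -0.94, -0.87 and -0.60, and without E11.5 replicate 2 that of *Vmn1r183* was 0.13. In all 4 genes the replicate 1 arrays were higher than the replicate 2 arrays of the same stage.

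Other dips belonged to genes of neurons and of the cell's machinery. *Htr7*, a serotonin receptor, had 7.33 and 5.85 at E10.5, then 5.81 and 5.51 at E11.5, then 6.25 and 6.04 at E12.5. *Rgs8*, a regulator of G protein signalling, had 7.14 and 6.80, then 6.55 and 6.52, then 6.98 and 7.13. *Rgs8* had closer replicates and a contrast of -0.48 ± 0.26, and *Htr7*, whose size depends on the E10.5 replicate 1 array, had -0.71 ± 0.43.

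*Mrps10*, of the mitochondrial ribosome, had 7.11 and 5.995 at E10.5, then 5.40 and 5.61 at E11.5, then 6.93 and 6.08 at E12.5. Its contrast of -1.03 ± 0.41 was -1.62 in replicate 1 and -0.43 in replicate 2, and its E11.5 arrays were under the detection limit. *Tsnax* (partner of the RNA-binding protein translin), *Nin* (a microtubule anchor at the centrosome) and *Epm2aip1* had both E11.5 arrays below all others with contrasts of -0.42, -0.39 and -0.41. *Vamp7*, a vesicle SNARE that serves neurite growth, *Zfp524*, a zinc finger gene, and *Slurp1*, a secreted Ly6 protein, had overlapping stages and contrasts of -0.46, -0.42 and -0.39.

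Genes of neurotransmission had 0 peaks and 2 dips among 35, and 9 of them had a contrast above 0. Their median contrast was -0.11, and E12.5 was the highest stage for 26 of 35. Over all clusters naming 1 gene, 5.63% had a peak, 8.44% had a dip, the contrast was above 0 for 44.4%, and E12.5 was the highest stage for 26.5%. Of the 35 genes 23 lay above the detection limit. Over all clusters above it those shares were 7.32%, 4.79%, 61.75% and 36.3%. The dips were *Gria4*, an AMPA receptor subunit, at -0.37, and *Slc32a1*, which loads GABA and glycine into vesicles, at -0.42. *Glra2*, a glycine receptor subunit, had the smallest p in the list without a dip, with 5.23 and 4.67 at E10.5, then 4.74 and 4.70 at E11.5, then 6.01 and 6.63 at E12.5. Its contrast was -0.91 ± 0.31, with a step of 1.60 in the second interval. *Neurod6*, a neuronal transcription factor, had 3.94 and 3.07, then 3.23 and 3.80, then 5.07 and 7.49. Both genes were under the detection limit on all arrays of E10.5 and E11.5, so these differences are set against signal near background.

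A large contrast thus often came without a peak or a dip. Of 169 clusters with a contrast of at least 0.5, 76 had a peak and 93 (55.0%) had neither pattern, and of 199 with a contrast of -0.5 or below, 103 had a dip and 96 (48.2%) had neither. *Postn*, which encodes periostin of mesenchyme, and *Mstn*, the muscle growth inhibitor myostatin, were highest at E10.5, *Postn* mainly on 1 array. *Postn* had 5.33 and 8.08 at E10.5, the first under the detection limit, and averaged 6.70, then 4.13 and then 3.78 over the 3 stages. *Mstn* averaged 6.91, then 4.26 and then 4.29. *Nrn1*, a neurite growth factor, was low at E10.5 alone and mainly on 1 array, with 5.41 and 7.63 there and 7.91 to 8.50 later.

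Oxidative phosphorylation subunits opposed each other between replicates. Of 28 measured, 23 had a contrast above 0, but the median was 0.50 in replicate 1 and -0.11 in replicate 2, and the E10.5 replicate 1 array was the lowest of the 6 for 21 of them (75.0%), against 46.5% of the clusters above the detection limit. Only *Sdha*, of succinate dehydrogenase, had a peak, with a contrast of 0.29. Cytoplasmic ribosomal protein genes had 0 peaks and 1 dip among 21 (5.63% and 8.44% of all clusters naming 1 gene). Newborn neuron genes had 0 peaks and 1 dip among 34, and *Gap43*, the growth cone gene with that dip, had 8.18 and 7.72 at E10.5, then 7.60 and 7.49 at E11.5, then 7.68 and 8.16 at E12.5. In all 3 lists the 2 replicates had medians of opposite sign.

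Markers of other cells had list medians between -0.14 and 0.05 over 11 lists and mostly lay near background. Over all clusters naming 1 gene 5.63% had a peak and 8.44% a dip, and over those below the detection limit 4.25% and 11.4%. Roof plate markers had 1 peak among 9, that of *Wnt1*, the gene whose regulatory sequence drives the Cre, with 4.88 and 5.97 at E10.5, then 5.67 and 6.20 at E11.5, then 5.54 and 5.24 at E12.5. Neural crest markers had 1 among 9, that of *Fabp7*, a fatty acid binding protein that progenitors also use, with 9.94 and 10.66, then 10.77 and 10.92, then 10.61 and 10.68. Endothelium markers had 5 dips among 13, of which 0 lay above the detection limit, and the largest was that of *Cldn5* at -0.45. Their median signal per array was 4.84 and 4.09 at E10.5, then 4.28 and 4.01 at E11.5, then 4.34 and 4.03 at E12.5. That of the receptor clusters was 4.27 and 3.365, then 3.93 and 3.42, then 4.20 and 3.32. In replicate 1 both lists were lowest at E11.5, and in replicate 2 only the endothelium markers were. A link between the lists was not tested. Microglia markers had 3 dips among 13. *Cx3cr1*, the fractalkine receptor, was the one above the limit, with 8.05 and 6.19 at E10.5, then 6.16 and 5.26 at E11.5, then 6.18 and 6.07 at E12.5, and its dip in replicate 1 rests on a difference of 0.02.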

How the data were processed

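GFP+ dorsal spinal cord cells of 3 stages were measured with 2 arrays each. The deposited values are log2 signals per transcript cluster, which the submitters' processing notes say were made with oligo on mm9 (version not given in the sources used here). They were used as deposited, with no filter. Of 23332 clusters, 14996 name 1 gene in the platform's table, 1019 name several and 7317 are not listed. The contrast was fitted in R 4.3.3 with limma 3.58.1 (1 mean per stage, moderated variances, Benjamini-Hochberg over all clusters) and the fit was tested on simulated data. Depth has no meaning for arrays, and their number limits the precision. The members, the 34 gene lists (774 entries, 621 genes measured in the 33 other than the receptor list) and the named genes were chosen with earlier results of these data known. Named genes were the 15 peaks and the 15 dips with the largest smallest-difference whose E11.5 mean (peaks) or lower flanking mean (dips) was above the detection limit, numbered gene models left out, the member of each list with the smallest p, and *Cbln1*. Others, among them *Lhx2*, *Robo3*, *Boc*, *Cdon*, *Nsdhl* and *H1f1*, were chosen after their values were seen. A gene with several clusters was read on the one with the highest mean signal. Tables and figures were made in Python 3.11.15 with pandas 2.3.3 and matplotlib 3.10.9. Alternatives are listed in the closing section.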

Additional observations from a re-analysis of the deposited data

How the results depend on the processing

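No alternative gave a cluster at an adjusted p under 0.05 (against 175 unadjusted). The unadjusted count of 175 became 529 with a replicate block, 273 with quantile normalization, 288 with no moderation, 32 when only clusters naming 1 gene were fitted, 44 when only clusters above the detection limit were fitted, and 100 to 2167 without any 1 array. The number of peaks, 844, became 492 above the detection limit, 239 when both E11.5 arrays had to pass all 4 others and 5 when every difference had to reach 0.5. The number of dips, 1266, became 322, 188 and 9. Above the detection limit quantile normalization gave 440 peaks and 401 dips and centring gave 483 and 282, both added after seeing the data, so that peaks were 60.4% of the patterned clusters as deposited, 52.3% and 63.1%. Without any 1 array there were 1361 to 4691 peaks and 1761 to 5098 dips.

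The replicate numbers are given in the labels without what they share. The differences between replicates correlated between stages (0.455, 0.468 and 0.484), but each comparison has 2 pairs, so the block is reported as an alternative. Without any 1 array the median contrast ranged from 0.061 to 0.53 for S phase genes, from -0.23 to 0.74 for mitosis genes, from 0.069 to 0.30 for dI1 neuron genes and from 0.091 to 0.38 for cholesterol synthesis genes. Of 60 named genes, 5 changed sign without 1 array. *Asah1* (-0.0062 to 0.72), *Ntrk2* (-0.020 to 0.78), *Hba-x* (-0.50 to 0.061) and *Vmn1r183* (-1.999 to 0.13) did so without E11.5 replicate 2, and *Cbln1* (-0.27 to 0.19) without E11.5 replicate 1 or E12.5 replicate 2. No named gene changed sign under the other 346 values of the remaining settings. Of the 32 lists, 24 had a median that changed sign in at least 1 setting.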

Other observations

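Outside the named genes, further peaks and dips with an unadjusted p under 0.05 were chosen after their values were seen. *Hpgds*, the hematopoietic prostaglandin D synthase, had 5.19 and 6.07 at E10.5, then 6.66 and 7.73 at E11.5, then 6.50 and 6.84 at E12.5, a contrast of 1.05 ± 0.41, with an E11.5 array below an E12.5 array. *Rtn4rl1*, a Nogo receptor homologue, had 4.19 and 4.73, then 5.75 and 5.25, then 5.12 and 4.65, with both E11.5 arrays above all others and all 6 under the detection limit. *Paqr9*, *Tmem230*, *Diras1*, *Map6d1* and *Nt5dc3* had both E11.5 arrays below all others, with contrasts between -0.996 and -0.689 and mean signals between 4.23 and 5.43, under the limit. *Prdx2*, a peroxiredoxin, and *Glo1*, glyoxalase 1, passed the same unadjusted threshold with neither pattern: *Prdx2* averaged 7.65 at E10.5, 9.24 at E11.5 and 9.17 at E12.5, and *Glo1* averaged 7.12, 5.83 and 6.20. Each came partly back in 1 replicate number only, *Prdx2* in replicate 1 (8.02, 9.44 and 8.835) and *Glo1* in replicate 2 (6.92, 5.755 and 6.57).

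Of the 8336 clusters that do not name 1 gene, 721 had a peak (8.65%) and 763 had a dip (9.15%). These clusters are not described further.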
